A study of Homo sapiens with 8 samples.

Results

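ES2 cells that carried a KDM1A knockout and had received 5 µM LY500307 for 48 h were compared with ES2 control cells given vehicle for the same time. The comparison was chosen by the sample labels and rests on 4 of the 8 libraries of the study, 2 on each side, so that both factors differ between the groups at once. The other 4 libraries, knockout cells with vehicle and control cells with LY500307, 2 of each, show what each factor did alone. All groups were ES2 cells, an established human ovarian carcinoma line, grown in the same serum-supplemented medium, and RNA was profiled by single-end sequencing with 50-base reads. The sources used here do not give the position of the KDM1A edit, whether the knockout cells are 1 clone or a pool, or what the control cells carry. Loss of KDM1A and any further difference between the 2 cell lines cannot be told apart. The labels describe the libraries of a group as duplicates and name no separate cultures, so the p-values reflect the spread between these libraries alone, and that spread may be technical.

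KDM1A, also called LSD1, is a flavin-dependent enzyme that erases methylation of the histone H3 tail at active promoters and enhancers and acts within the CoREST and NuRD repressor complexes, and it can also serve as a coactivator of nuclear receptors. LY500307 is a synthetic agonist of oestrogen receptor beta, the receptor encoded by ESR2, which has been described as a growth-restraining receptor in ovarian epithelium and its tumours. By its title, the study concerned how KDM1A bears on the tumour-suppressive action of that receptor. The question put to these 4 libraries is what the combined condition looks like against untreated cells, and which of its changes go beyond those of either factor alone.

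Gene counts per library ranged from 24348937 to 27538721 in the 4 libraries compared, and 15253 to 15474 genes had a count in each. Levels are given as CPM, the count divided by the library size and scaled to a fixed total, with the library size adjusted by the trimmed mean of M-values (TMM), and paired values such as "30.9 and 35.02 CPM" for MMP3 are the 2 libraries of a group. Changes are log2 fold changes with their standard error (SE), tested in edgeR (quasi-likelihood, Benjamini-Hochberg adjusted over 13498 genes), and "rose" and "fell" mean an adjusted p under 0.05. Of these genes 9169 (67.9%) passed, 4467 (33.1%) higher and 4702 (34.8%) lower. Of all 13498 genes tested, 9133 (67.7%) both passed and had no overlap between the 2 groups. Without normalization beyond library totals the split became 5473 higher and 3823 lower, and the median gene moved up by 0.11 on the log2 scale. A change of at least 2-fold was reached by 986 genes upward (7.3%) and 1088 downward (8.06%). A gene counted as above every other group when the combination exceeded each of the other 3 groups, judged by the largest of the 3 p-values, and 382 genes (2.83%) lay above and 519 (3.85%) below. These shares, and the 33.1% higher and 34.8% lower, are the background for the list counts that follow. The combined change departed from the sum of the 2 single log2 changes in 218 genes (1.62%), 71 above the sum and 147 below it. The counts of genes beyond every other group and of departures moved by more than 1.5 times when single libraries were left out, with 153 genes above and 302 below every other group without knockout vehicle replicate 2, 165 above without knockout LY500307 replicate 1 and 230 above without knockout vehicle replicate 1. Departures numbered 95 without control LY500307 replicate 2, 96 without knockout vehicle replicate 2, 118 and 134 without control vehicle replicates 1 and 2, and 122 without control LY500307 replicate 1.

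Every knockout library held less KDM1A transcript (hg19 chromosome 1, 23345936 to 23410182) than any control library. It stood at 219.98 and 219 CPM in control cells with vehicle and at 71.9 and 71.5 CPM in knockout cells with LY500307, a change of -1.61 (SE 0.05), adjusted p = 7.10e-25 by edgeR. Knockout cells with vehicle had 75.6 and 77.8 CPM and control cells with LY500307 238 and 241 CPM. Transcript thus remained in the knockout libraries, and counts over the whole gene do not show which part was edited. ESR2, the gene of the receptor that LY500307 addresses, had 0.0426 and 0.299 CPM in control and 0.187 and 0.244 CPM in combined libraries, too few counts to be tested. The alpha receptor gene ESR1 stood at 0.511 and 0.469 against 0.375 and 0.175 CPM, a change of -0.84 (SE 0.57) that did not pass (adjusted p = 0.193 by edgeR). The gene of the membrane oestrogen receptor, GPER, rose from 0.682 and 0.853 to 2.89 and 3.21 CPM, a change of 1.99 (SE 0.28), adjusted p = 1.70e-07 by edgeR, and stood at 3.32 and 3.28 CPM in knockout cells with vehicle.

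Genes that were nearly absent from untreated cells headed the rises. CLEC5A, a lectin receptor of myeloid cells (chromosome 7, 141627157 to 141646807), had no count in control libraries and 58.3 and 59.5 CPM in the combination, at least 921-fold higher against a floor of 3 counts over the group. MMP3, the matrix-degrading protease stromelysin 1 (chromosome 11, 102706532 to 102714340), stood at 30.9 and 35.02 CPM in control and 2262 and 2139 CPM in combined libraries, a change of 6.06 (SE 0.08), adjusted p = 2.81e-35 by edgeR. IL13RA2, a decoy receptor for interleukin 13, went from 1.70 and 1.88 to 331 and 317 CPM. Each of these 3 was high in both combined libraries and low in both controls, but genes were ranked here only if the groups did not overlap. Of all genes tested, 67.7% were called without overlap. MGAM, an intestinal glucosidase that neighbours CLEC5A on chromosome arm 7q, reached 105 and 105 CPM from 0.256 and 0.256 CPM. LAMA1, a laminin chain of basement membranes, rose from 1.41 and 1.58 to 113 and 122 CPM and was the single gene besides IL24 among the 15 largest rises that lay above every other group, with 98.98 and 96.6 CPM in knockout cells with vehicle. IL24, a cytokine of the interleukin 10 family, rose from 1.53 and 1.11 to 47.3 and 47.9 CPM. The remaining rises ranged from a log2 change of 5.16 for the myosin gene MYH16 to 7.91 for the zinc finger gene ZBTB7C, and included the cadherin CDH19, the folate-binding FOLR3, the sarcoglycan SGCZ, BTNL8, ZNF737, CCDC147 and BST2, which encodes the antiviral membrane protein tetherin.

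Nearly all of the size of these rises was already present in knockout cells with vehicle, where CLEC5A had 61.3 and 57.9 CPM, MMP3 2422 and 2435 CPM and IL13RA2 352 and 346 CPM. In control cells with LY500307 the same transcripts were low but unequal between the 2 libraries. CLEC5A stood there at 0.175 and 0.678 CPM, MGAM at 0.0349 and 1.53 CPM, IL13RA2 at 1.36 and 5.03 CPM and MMP3 at 47.2 and 66.6 CPM, each higher in replicate 2. Where these traces came from was not tested.

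The largest falls were of genes whose transcripts all but disappeared. THY1, a surface glycoprotein of fibroblasts and neurons (chromosome 11, 119286186 to 119295695), fell from 31.1 and 35.8 CPM to 0 and 0.0349 CPM, a ratio of 1851 (95% counting interval 332 to 73168). NCAM2, a neural cell adhesion molecule, fell from 39.9 and 38.1 to 0.0375 and 0.0349 CPM, a ratio of 1079 (95% counting interval 298 to 8916). VCAM1, an adhesion receptor for leukocytes, stood at 36.2 and 33.99 CPM in control and 0.0375 and 0.0349 CPM in combined libraries. Both combined libraries were far below both controls for each of these adhesion molecules, and non-overlap was again a condition of the ranking. GRB10, an adaptor that restrains insulin signalling, fell from 66.4 and 65.6 to 0.187 and 0.140 CPM. ODZ4 and EDA2R, a teneurin and a receptor for ectodysplasin, had no count in the combined libraries and were at least 108-fold and 103-fold lower. SORCS3, TMPRSS15, IGFBP7, PTPRN2, ODZ2, DSEL, PNMA2 and MAGEA6 were also among the 15, and MAGEA6 shares near-identical copies with neighbouring genes, so its reads are uncertain. None of the 15 lay below every other group by the test, and none passed as lower with LY500307 alone, where THY1 stood at 37.7 and 37.4 CPM and NCAM2 at 38.9 and 38.3 CPM.

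A different set of genes lay farther out in the combination than with either factor alone. Of those named here, DKK2 and SEMA3A also departed from the sum of their single changes, by -1.42 and -0.75. The others did not pass that test. FOSB, a transcription factor induced within minutes of many stimuli, stood at 5.63 and 5.80 CPM in control cells with vehicle, 11.7 and 12.8 CPM with knockout, 8.35 and 9.13 CPM with LY500307 and 23.99 and 25.8 CPM with both, a combined change of 2.12 (SE 0.11). HMOX1, haem oxygenase 1, a cytoprotective enzyme that breaks down haem, followed the same order, with 10.2 and 8.79 CPM, then 77.2 and 82.7 CPM, then 18.97 and 23.3 CPM, then 145 and 142 CPM. The combined libraries were the highest of all 8 for both genes, by 1.02 and 0.84 log2 units over the nearest group (adjusted p = 4.86e-09 and 4.00e-11 by edgeR). DUSP10, a phosphatase that switches off stress kinases, reached 47.9 and 48.04 CPM against 6.05 and 7.17 in control and 28.6 and 27.4 CPM with knockout alone. FOS, AOC2, DNAH1, GREB1 and GDPD1 completed the 8 genes highest in the combination. At the other end, LEPR, the leptin receptor, stood at 18.2 and 19.6 CPM in control, 11.2 and 11.7 with knockout, 10.8 and 10.8 with LY500307 and 6.04 and 5.48 CPM with both. SLIT2, a secreted guidance protein, fell from 46.2 and 40.9 to 7.53 and 8.21 CPM. DKK2, a secreted WNT modulator, was not lower with either factor alone (8.34 and 7.46 CPM with knockout, 7.93 and 8.42 CPM with LY500307, 6.82 and 6.53 CPM in control) and fell to 3.49 and 3.74 CPM with both. SEMA3A, a repulsive guidance cue, was likewise lowered by LY500307 in knockout cells and not in control cells, with 102 and 96.6 CPM in control, 78.5 and 78.9 with knockout, 107 and 99.6 with LY500307 and 48.96 and 48.2 CPM with both. FLJ23867, MYCT1 and CCDC61 were also among the 8 lowest, and the distances of GREB1, GDPD1, MYCT1 and CCDC61 from the nearest group did not pass under DESeq2 (adjusted p from 0.0705 to 0.208) or without some of the 4 knockout libraries, and that of MYCT1 did not pass with library totals (adjusted p = 0.0560 by edgeR). The libraries were knockout LY500307 replicate 1 for all but GREB1, knockout LY500307 replicate 2 for GREB1 and MYCT1, knockout vehicle replicate 1 for all but GDPD1 and knockout vehicle replicate 2 for CCDC61.

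**Figure D1:**
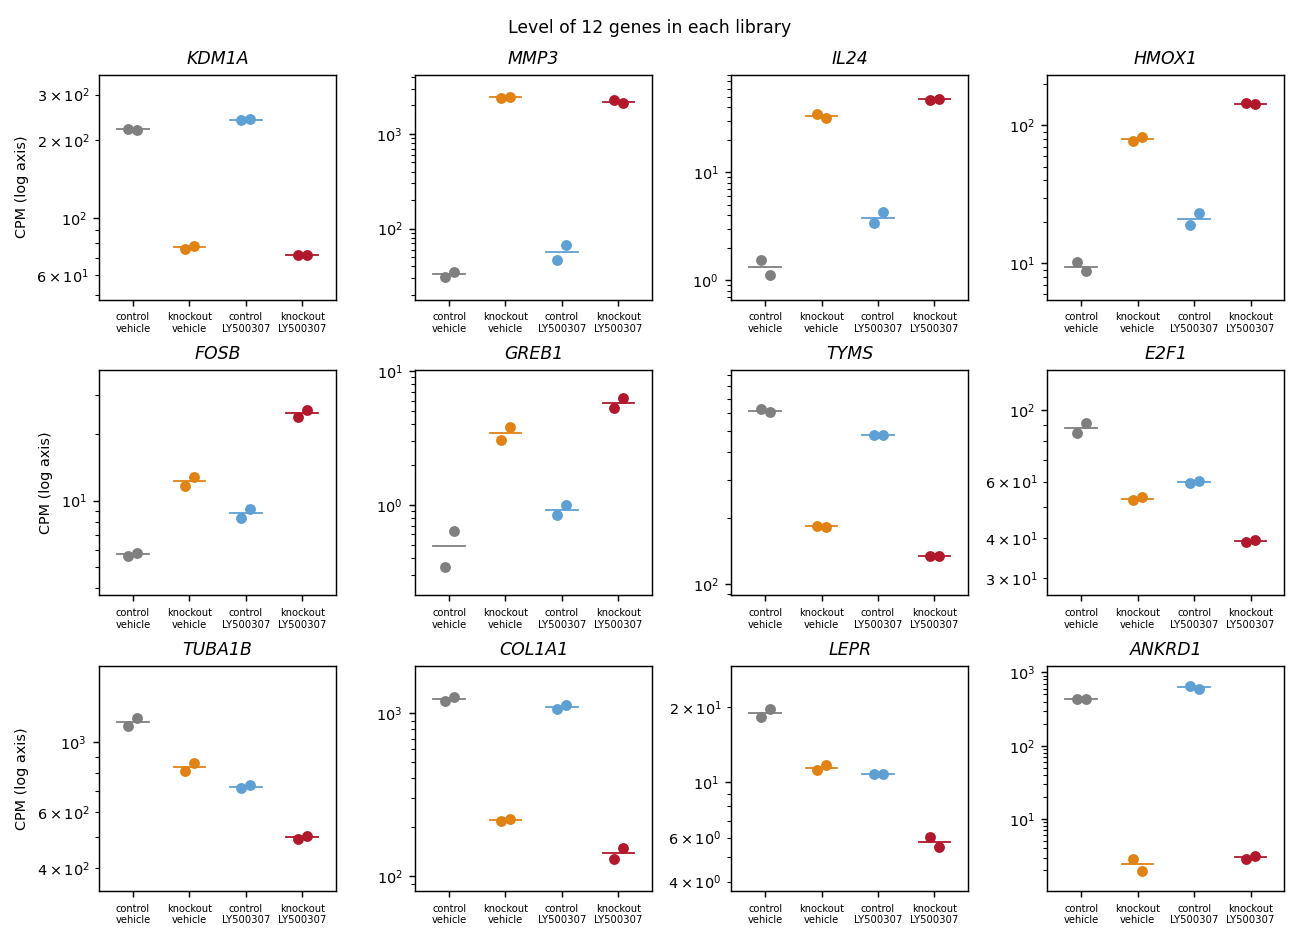
Level of 12 genes in CPM on a log axis, each dot a library and each line the mean of a group of 2. MMP3 is high in all 4 knockout libraries, FOSB and HMOX1 are highest and LEPR, TUBA1B and COL1A1 lowest in the 2 libraries with both factors.

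Genes that copy DNA mostly fell. Of 46 genes that act at the start of S phase or in replication, all tested, 35 fell, 3 rose and 8 did not pass, where 34.8% of all genes fell and 33.1% rose, with a median log2 change of -0.52 against -0.01 over all genes. TYMS, thymidylate synthase, which makes the thymidine nucleotide for DNA, fell from 626 and 609.99 to 135 and 135 CPM, a change of -2.20 (SE 0.04), adjusted p = 1.66e-30 by edgeR. E2F1, a transcription factor that opens the S-phase programme, stood at 84.98 and 91.3 CPM in control, 52.4 and 53.7 with knockout, 59.3 and 60.1 with LY500307 and 38.8 and 39.5 CPM with both. CCNE2, cyclin E2, went from 92.3 and 93.1 to 37.9 and 36 CPM. In all 3 the 2 combined libraries were the lowest of the 8. Of the 46 genes, 17 lay below every other group and none above, against 3.85% and 2.83% of all genes. They were TYMS, CCNE2, E2F1, the GINS subunits GINS1, GINS2 and GINS4, the thymidine kinase TK1, the helicase subunits MCM2, MCM3, MCM5 and MCM7, CDC6, CDC45, FEN1, the polymerase alpha subunits POLA1 and POLA2, and RRM1 of ribonucleotide reductase. MCM3 may stand for the pattern, with 379 and 383 CPM in control, 287 and 294 with knockout, 293 and 294 with LY500307 and 213 and 225 CPM with both. The median single changes of the list were -0.20 with knockout and -0.30 with LY500307, and 1 member, MCM5, departed from the sum of its single changes (-0.28, adjusted p = 0.0495 by edgeR). The 3 that rose were RPA2 and ORC1, which bind single-stranded DNA and replication origins, and GINS3, with changes of 0.26, 0.14 and 0.23. RPA2 and ORC1 turned to -0.06 and -0.18 when chromosome arm medians were removed. Without control vehicle replicate 2 the rises of ORC1 and GINS3 did not pass (adjusted p = 0.258 and 0.0553 by edgeR), and that of ORC1 did not pass either under DESeq2, without the filter on low counts or without any 1 of the 4 knockout libraries.

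Many promoters of these genes share a motif, which is why a pair of them is shown. Of 40 tested list members found in the RefSeq promoter table (GRCh38.p14, windows from 250 bases before to 50 after the start), 24 (60%) held the E2F motif TTTNNCGC on either strand, against 10.5% of 10308 windows of tested genes and 6.89% of all 35116 windows. The 250 bases before the start are printed 5′ to 3′ on the gene's strand, with motif matches in capitals, which can overlap. E2F1 lies on the minus strand at chr20:33686386-33686635 with 4 matches, and TYMS on the plus strand at chr18:657403-657652 with 1 match. A match is a description of these letters and no evidence of binding.
E2F1: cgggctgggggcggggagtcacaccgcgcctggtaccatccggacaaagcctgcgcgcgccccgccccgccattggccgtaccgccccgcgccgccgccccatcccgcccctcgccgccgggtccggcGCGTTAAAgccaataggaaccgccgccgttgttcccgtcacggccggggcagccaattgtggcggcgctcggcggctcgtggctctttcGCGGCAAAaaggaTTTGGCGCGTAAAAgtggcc
TYMS: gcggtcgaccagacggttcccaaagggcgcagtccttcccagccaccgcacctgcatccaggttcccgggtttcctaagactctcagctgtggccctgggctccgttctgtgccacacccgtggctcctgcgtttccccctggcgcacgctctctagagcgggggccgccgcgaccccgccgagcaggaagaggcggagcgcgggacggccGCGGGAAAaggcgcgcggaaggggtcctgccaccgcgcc

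Mitotic genes were less one-sided. Of 41 genes of G2 and mitosis, 22 fell (53.7%) and 11 rose (26.8%), with a median of -0.14, against 34.8% and 33.1% of all genes. With knockout alone the median was -0.16, and with LY500307 alone it was -0.04. Of the 41, 8 lay below every other group and 2 above, against 3.85% and 2.83% of all genes. TOP2A, the topoisomerase that untangles chromosomes, stood at 766 and 727 CPM in control, 675 and 619.8 with knockout, 655 and 633 with LY500307 and 419.6 and 422 CPM with both. Its combined change of -0.83 lay below the sum of its single changes, with a difference of -0.41 (SE 0.06, adjusted p = 9.14e-05 by edgeR). CDK1, the mitotic kinase, was 251 and 246 CPM in control, 294 and 276 CPM with knockout and 199.9 and 199.9 CPM with both. BIRC5, survivin, fell from 193 and 199.7 to 89.2 and 88.2 CPM and the mitotic regulator FOXM1 from 368 and 376 to 240.2 and 233 CPM. SGOL1 and KIF2C, which act at centromeres, rose by 0.72 and 0.55, and CKS2, a subunit of cyclin-dependent kinases, rose from 70.5 and 74.1 to 119 and 113 CPM. MKI67, a proliferation marker gene, stood at 667 and 652 against 671 and 650.2 CPM and did not pass. The count of 8 below every other group fell to 3 without knockout LY500307 replicate 1, to 4 without knockout vehicle replicate 2, to 5 without knockout LY500307 replicate 2 and to 4 with library totals, where 5 lay above.

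Cell cycle brakes and drivers mostly fell. Of 18 tested genes of cyclins, inhibitors and E2F brakes, 13 fell and 2 rose (median -0.33), where 34.8% of all genes fell and 33.1% rose. CDKN1A, the p21 inhibitor of cyclin-dependent kinases, rose from 6.69 and 8.74 to 26.2 and 29.8 CPM, a change of 1.86 (SE 0.11), adjusted p = 1.36e-16 by edgeR. CCND1, cyclin D1, fell from 1088 and 1090.1 to 692 and 674 CPM, the retinoblastoma gene RB1 from 84.4 and 77.3 to 46.1 and 48.3 CPM and CDKN2C, the p18 inhibitor, from 41.3 and 40.2 to 22.3 and 25.1 CPM. The inhibitor p21 thus rose while most cyclins and other inhibitors of the list fell. Of 35 DNA repair genes, 18 fell (51.4%) and 4 rose (11.4%), with a median of -0.18. Among the 5 that lay below every other group, as did 3.85% of all genes, were FANCA, FANCI, MSH6 and RAD54L. RAD54L, a recombination helper, was 45.4 and 43.5 CPM in control, 45.8 and 46.4 CPM with knockout, 30.7 and 31.2 CPM with LY500307 and 23.2 and 27.6 CPM with both. Without control vehicle replicate 2 the repair genes that rose numbered 2. The repair count of 5 below every other group fell to 2 without knockout LY500307 replicate 1, to 3 without either control LY500307 library, with library totals and under DESeq2.

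Tubulins, the subunits of microtubules, were a further group that mostly fell. Of 15 tested genes of tubulins and microtubule regulators, 10 fell and 1 rose, with a median of -0.43, where 34.8% of all genes fell and 33.1% rose. TUBA1A, TUBA1B, TUBA1C, TUBB and TUBB6 lay below every other group, as did 3.85% of all genes. TUBA1B stood at 1124 and 1197 CPM in control, 812 and 862 with knockout, 717 and 733 with LY500307 and 496 and 505 CPM with both. TUBB6 fell from 808 and 838 to 317 and 321 CPM, a change of -1.37 (SE 0.04). The 1 member that rose was TUBE1, epsilon-tubulin of centrioles, from 12.8 and 15.2 to 24.3 and 26.5 CPM. Alpha-tubulin genes are close copies, and reads that aligned to more than 1 place were not counted to any gene. Their levels thus rest on uniquely aligned reads alone.

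Amino acid stress genes mostly rose. Of 37 tested genes of the integrated stress response, which the factor ATF4 drives when amino acids or protein folding fail, 28 rose and 6 fell, where 33.1% of all genes rose, with a median of 0.50. With knockout alone the median was 0.30, and with LY500307 alone it was 0.06. CTH, which makes cysteine, stood at 8.69 and 10.2 CPM in control, 25.5 and 26.2 with knockout, 12.2 and 13.1 with LY500307 and 37.6 and 38.3 CPM with both, a change of 2.01 (SE 0.10), adjusted p = 2.62e-19 by edgeR. SLC3A2, the heavy chain of amino acid exchangers, went from 152 and 161 to 463 and 483 CPM, and DDIT3, the stress factor CHOP, from 18.7 and 18.6 to 41.9 and 43.1 CPM. Both combined libraries were the highest of the 8 for these 3 genes. With them, GDF15, SLC6A9, ATF3, ASNS, PCK2, TRIB3 and the tRNA synthetases GARS and AARS lay above every other group, 11 in all, and PSPH of serine synthesis lay below. That count was 7 without either knockout vehicle library or without knockout LY500307 replicate 1, 6 under DESeq2 and 17 with library totals. CHAC1, which degrades glutathione and is a usual member of this response, ran against the others, at 6.86 and 7.93 CPM in control, 0.810 and 0.669 with knockout, 7.41 and 7.13 with LY500307 and 2.14 and 1.89 CPM with both. The ATF4 transcript itself stood at 249 and 254 against 254 and 245 CPM and did not pass.

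Other stress lists were mixed. Of 22 genes of endoplasmic reticulum chaperones, 8 rose and 8 fell, where 33.1% of all genes rose and 34.8% fell. HERPUD1, a degradation factor of that compartment, rose from 60.9 and 64.7 to 178 and 172 CPM, and PDIA4, a folding enzyme, fell from 642 and 632 to 309 and 313 CPM. HERPUD1, DNAJB9 and HSPA5 lay above every other group. Of 18 tested cytosolic heat shock genes 9 rose and 4 fell, and 5 lay above every other group, among them HSPA1A and HSPA1B, near-identical copies whose reads are uncertain. HSPA1A stood at 11.97 and 11.5 CPM in control and 24.3 and 26.3 CPM with both, and CHORDC1, a co-chaperone, at 126 and 122 CPM in control and 205 and 193 CPM with both. The 4 that fell became 1 with library totals or without knockout LY500307 replicate 2 and 2 without control vehicle replicate 1. The heat shock count of 5 above every other group was 2 without knockout vehicle replicate 2 and 3 with arm medians removed. Of 26 tested genes of NRF2 targets, iron and haem, 13 rose and 7 fell. Besides HMOX1, the steroid-reducing enzyme AKR1C3 rose from 3.96 and 5.08 to 16.3 and 16.7 CPM, while the drug exporter ABCC1 fell from 124 and 119 to 49.6 and 55.2 CPM and the transferrin receptor TFRC from 1230.3 and 1163 to 754 and 793 CPM. Of 23 tested p53 targets 11 rose and 6 fell (3 fell with library totals or arm medians removed), with SESN2, a stress sensor, from 31.8 and 33.7 to 77 and 75.9 CPM and MDM2, the inhibitor of p53, from 100.02 and 91.7 to 78.2 and 78.98 CPM. Among 29 genes of the BCL2 family and death receptors 11 rose (37.9%) and 12 fell (41.4%), near the shares of all genes. The killer BCL2L11 went from 7.59 and 7.72 to 14.1 and 16.4 CPM, the killer BAX from 59.4 and 64.5 to 39.5 and 38.4 CPM and the survival gene BCL2L1 from 103 and 106 to 71.3 and 69.6 CPM. A death promoter thus rose and another fell, as did a survival gene.

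Structural matrix genes fell, many of them to a level below that with knockout alone. Of 31 tested genes of collagens, laminins and matrix glycoproteins, 23 fell and 6 rose, where 34.8% of all genes fell, with a median of -0.90, and 15 fell by at least 2-fold. COL1A1, the main chain of type I collagen, stood at 1193 and 1251 CPM in control, 218 and 224 with knockout, 1069 and 1131 with LY500307 and 127 and 149 CPM with both, a change of -3.15 (SE 0.05), adjusted p = 1.54e-32 by edgeR. FN1, fibronectin, stood at 3475 and 3367 CPM in control, 883 and 897 with knockout, 3351 and 3507 with LY500307 and 674 and 707 CPM with both. LY500307 changed COL1A1 by -0.15 in control and -0.68 in knockout cells, and FN1 by 0.00 and -0.37. Of the 31 genes, 14 lay below every other group and none above: COL1A1, FN1, COL4A1, COL4A2, COL6A1, COL6A2, COL12A1, COL13A1, the laminin chains LAMA4, LAMB1 and LAMC1, the cross-linking oxidases LOX and LOXL2, and FBN2. The combined change lay below the sum of the single changes in 13 and above it in none, against 147 and 71 of the 13498 genes tested. The count of 14 became 9 with library totals or without knockout vehicle replicate 1, and the 13 departures became 8 without control vehicle replicate 2, knockout vehicle replicate 2 or either control LY500307 library. COL5A1, BGN and THBS1 fell, with changes of -5.34, -4.70 and -2.89, close to their changes with knockout alone of -5.27, -4.85 and -3.23. LAMB3, an epithelial laminin chain, and TNC, tenascin C, rose from 289.7 and 295 to 1453 and 1476 CPM and from 189 and 198 to 335 and 348 CPM, and TNC was higher still with knockout alone, at 503 and 502 CPM.

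**Figure D2:**
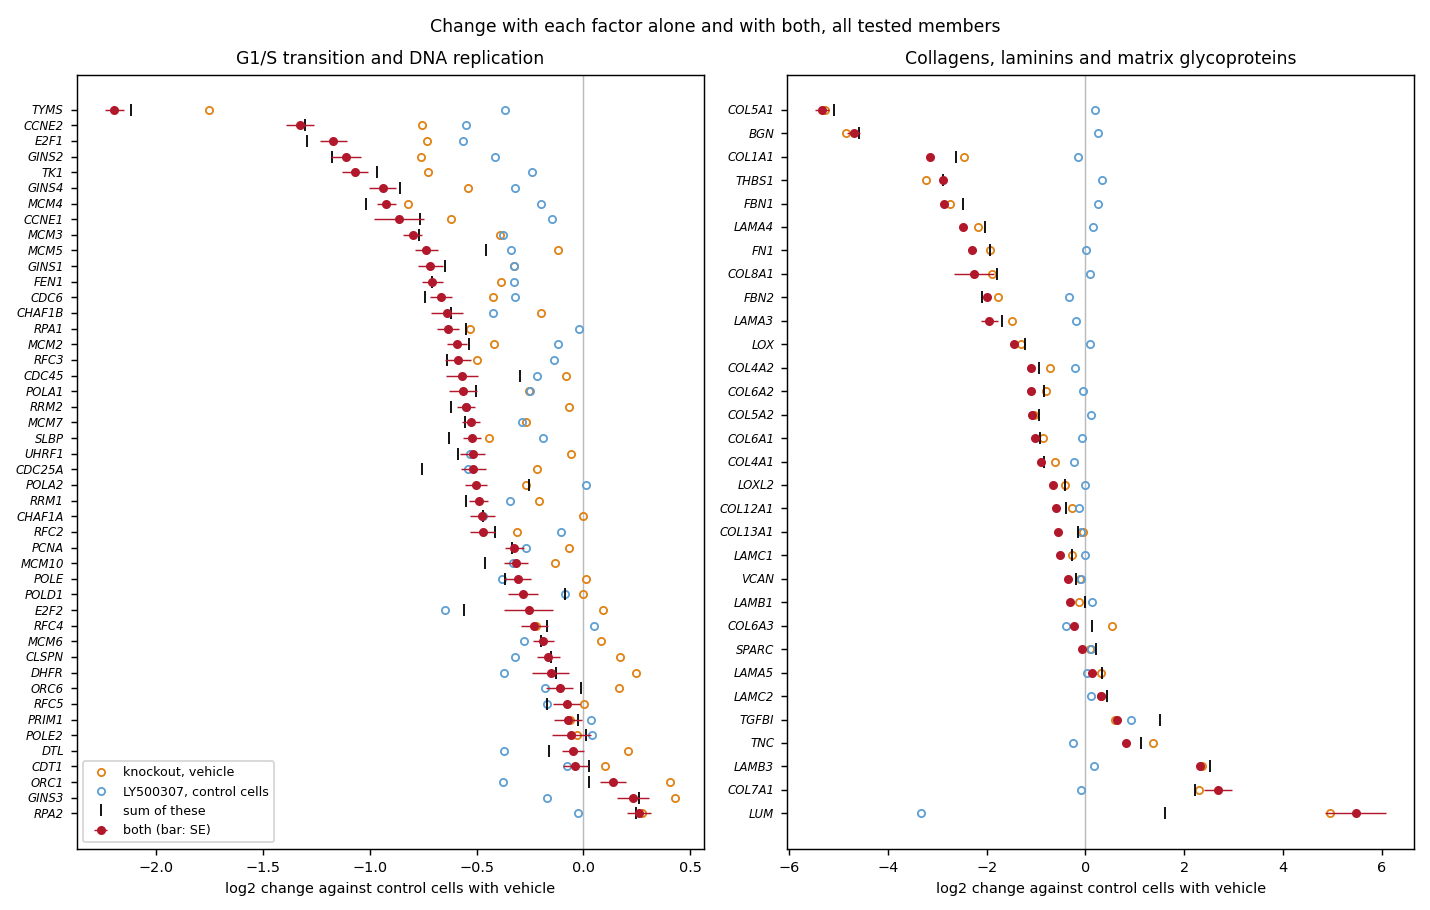
Log2 change against control cells with vehicle for each tested gene of the replication list and the matrix list: knockout alone, LY500307 alone, their sum and both factors (filled, bar 1 SE). By the test, 1 replication gene (MCM5) and 13 matrix genes lie below the sum, and none of either list above it.

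Proteases and their inhibitors moved in both directions, with 9 of 23 tested genes higher (39.1%) and 8 lower (34.8%). Those shares were close to the 33.1% and 34.8% of all genes. MMP2, the gelatinase A that cleaves basement membrane, stood at 38.6 and 41.2 CPM in control, 653 and 652 with knockout, 74.1 and 85.9 with LY500307 and 768 and 760.5 CPM with both, a change of 4.26 (SE 0.06). MMP2 and MMP15 lay above every other group and PLAT below. PLAT, the tissue plasminogen activator, fell from 1306 and 1316 to 265 and 268 CPM and TIMP3, an inhibitor of metalloproteinases, from 350.3 and 332 to 71.9 and 65.6 CPM. Proteases MMP2 and MMP3 thus rose while the inhibitor TIMP3 fell. Of the list's genes, 6 lay below the sum of their single changes and none above, namely MMP2, MMP3, PLAT, PLAU, SERPINB2 and TIMP3. For MMP2, MMP3 and TIMP3 LY500307 raised the level in control cells by 1.00, 0.79 and 0.61 and changed it by 0.23, -0.14 and 0.17 in knockout cells.

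Adhesion and mesenchymal genes mostly fell. Of 27 tested integrins and adhesion receptors, 18 fell and 4 rose (median -0.48), where 34.8% of all genes fell and 33.1% rose. The list's median was -0.43 with knockout alone and 0.01 with LY500307 alone. TLN1, VCL, ITGB1 and ITGB8 lay below every other group, a count of 1 without knockout vehicle replicate 1 and 2 with library totals or without any 1 of 6 further libraries. Beside NCAM2 and VCAM1, the melanoma adhesion molecule MCAM fell from 6.78 and 7.21 to 1.20 and 0.978 CPM, while ICAM1, a receptor for leukocyte integrins, rose from 54.5 and 55.96 to 116 and 120.4 CPM and lay above every other group, with 99.3 and 101 CPM with knockout alone. Of 21 tested mesenchymal genes 12 fell and 5 rose (median -0.78, against -0.72 with knockout alone and 0.13 with LY500307 alone). FOXC2, PRRX1 and PDGFRA fell, with changes of -3.83, -1.77 and -1.77, whereas the transcription factors SNAI1, SNAI2 and ZEB1 rose, SNAI2 from 49.99 and 51.4 to 113 and 109 CPM. Of 20 tested epithelial genes 8 fell and 2 rose (median -0.52), but the balance rested on control vehicle replicate 2, without which 2 fell and 4 rose. The fallen numbered 4 under DESeq2 and 5 without knockout LY500307 replicate 1, and the risen 4 with library totals or without knockout LY500307 replicate 2. The keratins KRT18 and KRT8 fell from 333 and 320.1 to 141 and 145 CPM and from 25.1 and 29.3 to 5.29 and 5.45 CPM and KRT7 rose from 252 and 262 to 359.7 and 349 CPM. KRT18 and KRT8 lay below every other group, and neither did without either knockout vehicle library or without knockout LY500307 replicate 1. The fall of mesenchymal genes was thus not accompanied by a rise of the keratin pair KRT8 and KRT18.

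Signalling lists separated by pathway. Of 27 tested YAP-TEAD targets, genes switched on by stiff matrix and spread cell shape, 18 fell and 4 rose (median -0.43). Of all genes 34.8% fell and 33.1% rose. The median of the YAP-TEAD list was -0.37 with knockout alone and -0.01 with LY500307 alone. ANKRD1, a classical target, fell from 436 and 432 to 2.85 and 3.18 CPM, a change of -7.17 (SE 0.09), and CTGF, a matricellular protein, stood at 1558 and 1514 CPM in control, 585 and 585 with knockout, 1348 and 1347 with LY500307 and 452 and 430.3 CPM with both. CTGF, AXL, MYOF, PTPN14 and ARHGEF17 lay below every other group, 3 of them without knockout vehicle replicate 2. CYR61, another classical target, stood at 1406 and 1373 against 1432 and 1406 CPM and did not pass. Of 24 tested WNT pathway genes 15 fell and 3 rose (6 rose with library totals). Their median was -1.35 with both factors, -1.24 with knockout alone and 0.13 with LY500307 alone. The co-receptor LRP5 went from 10.3 and 9.26 to 0.412 and 0.384 CPM, the stem cell receptor LGR5 from 15.1 and 19.1 to 1.91 and 2.90 CPM and the receptor FZD8 upward from 14.9 and 16.7 to 41.7 and 45.7 CPM. No gene of this WNT list lay beyond every other group, but DKK2, named above among the genes lowest in the combination, is not on it. Among 34 tested growth factor genes 24 fell and 6 rose (median -0.47, against -0.52 with knockout alone and 0.03 with LY500307 alone). The ERBB ligand NRG1 fell from 100.1 and 97.8 to 3.67 and 4.43 CPM, and the receptor IGF1R rose from 35.9 and 33.2 to 71.2 and 67.6 CPM and lay above every other group. Of 29 tested TGF-beta and BMP genes 12 rose (41.4%) and 9 fell (31%), against 33.1% and 34.8% of all genes. The inhibitory SMAD7 went from 1.79 and 1.75 to 13.2 and 10.7 CPM, the signal carrier SMAD3 from 362 and 372 to 140.4 and 149 CPM and the activin subunit INHBA from 113 and 109 to 261 and 239.6 CPM.

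Immediate early genes, transcribed within minutes of a stimulus, rose in 12 of 18 tested members and fell in 3 (median 0.40). Of all genes 33.1% rose and 34.8% fell. The list's median was 0.54 with knockout alone and 0.08 with LY500307 alone. FOS, FOSB, ATF3, EGR1, IER3 and MYC lay above every other group, between 4 and 6 of them in each alternative analysis. EGR1 stood at 44.1 and 44.1 CPM in control, 71.9 and 82.5 with knockout, 46.8 and 55.3 with LY500307 and 112 and 113 CPM with both, and MYC, a transcription factor that drives ribosome synthesis, at 213 and 213 CPM, 241 and 231 CPM, 216 and 202 CPM and 264 and 273 CPM in the same order. NR4A1, an orphan nuclear receptor of this group, rose from 3.58 and 3.63 to 10.7 and 12.5 CPM without passing the test against knockout alone. KLF2, KLF4 and MAFF fell, with changes of -0.24, -0.37 and -0.13, and each of the 3 falls missed the threshold with library totals (adjusted p of 0.151, 0.0872 and 0.723 by edgeR) and without control vehicle replicate 1. The MAFF call was lost without any 1 of the 8 libraries and under every other alternative but the replicate block and removal of arm medians, KLF2 lost its call without knockout LY500307 replicate 1 as well, and KLF4 under DESeq2 and without knockout LY500307 replicate 2. Of 37 genes of MYC and ribosome biogenesis 16 rose and 9 fell (median 0.07), with NOP2, a ribosomal RNA methylase, from 129 and 127 to 216 and 221 CPM. Replication genes fell while MYC and part of the ribosome biogenesis genes rose in the same libraries.

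Inflammatory genes mostly rose. Of 31 tested NF-kB targets and cytokines 22 rose and 3 fell, where 33.1% of all genes rose, with a median of 0.81, and 14 rose by at least 2-fold. With knockout alone the median was already 0.73, and with LY500307 alone it was 0.23. IL1A, a danger-signal cytokine, went from 0.511 and 0.469 to 8.85 and 6.98 CPM, and IL1B from 73 and 69.99 CPM in control, 98.1 and 94.8 with knockout and 127 and 128 with LY500307 to 149.9 and 145 CPM with both. BIRC3, an NF-kB-induced inhibitor of cell death, rose from 8.14 and 8.57 to 33.1 and 32.6 CPM, and TNFAIP3, a feedback inhibitor of NF-kB, from 17.6 and 16.7 to 43.3 and 46.3 CPM. Both combined libraries were above both controls for these genes, which were named under a rule of non-overlap or after their values were seen. PTGS2, cyclooxygenase 2, fell from 24.5 and 23.8 to 18.8 and 17.9 CPM. IL24, IL1A, IL1B, BIRC3, ICAM1 and NFKB1 lay above every other group, a count of 2 without knockout LY500307 replicate 1, 3 without either knockout vehicle library or under DESeq2, and 4 without knockout LY500307 replicate 2. The NF-kB motif GGANTTTCC was found in the promoter windows of 12 of 25 matched members (48.0%), against 1.59% of windows of tested genes. IL1A, IL24, BIRC3 and PTGS2 held no match and ICAM1 held 1. The list was drawn up as NF-kB targets, and whether the motif bears on their rise was not tested.

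Interferon-stimulated genes did not move as a block. Of 42 tested, 21 rose and 9 fell (median 0.35), where 33.1% of all genes rose and 34.8% fell. BST2 rose from 0.170 and 0.0853 to 17.1 and 14.98 CPM, a change of 6.92 (SE 0.27), and GBP1, an interferon-induced GTPase, from 4.43 and 4.09 to 15.3 and 13.3 CPM. OAS3, a sensor of double-stranded RNA, fell from 7.46 and 7.76 to 0.412 and 0.663 CPM, a change of -3.80 (SE 0.24), and the membrane restriction factors IFITM2 and IFITM3 from 55.8 and 56.3 to 15.8 and 13.9 CPM and from 40.3 and 43.1 to 16.5 and 15.4 CPM. Of 32 members with a promoter window, 22 (68.8%) held the interferon response core GAAANNGAA on either strand, against 6.43% of windows of tested genes and 8.11% of all windows. The list was drawn up as interferon-stimulated genes, and whether the motif bears on their changes was not tested. BST2 and OAS3, which moved in opposite directions, both carry it, and their promoters are shown for that reason, 250 bases before the start on the gene's strand in GRCh38.p14 from RefSeq, with matches in capitals. BST2 lies on the minus strand at chr19:17405631-17405880 and OAS3 on the plus strand at chr12:112938224-112938473, each with 2 matches in the bases shown.
BST2: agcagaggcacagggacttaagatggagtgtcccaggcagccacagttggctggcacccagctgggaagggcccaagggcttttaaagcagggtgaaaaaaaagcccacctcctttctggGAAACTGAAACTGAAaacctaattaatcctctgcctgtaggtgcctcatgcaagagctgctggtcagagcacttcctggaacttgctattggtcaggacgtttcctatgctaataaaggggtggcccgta
OAS3: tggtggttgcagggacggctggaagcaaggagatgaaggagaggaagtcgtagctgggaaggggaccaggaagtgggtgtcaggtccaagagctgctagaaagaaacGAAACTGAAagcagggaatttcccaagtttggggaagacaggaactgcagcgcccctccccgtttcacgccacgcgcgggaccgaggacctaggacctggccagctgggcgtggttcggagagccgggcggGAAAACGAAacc
Of 17 tested genes of MHC class I presentation 5 rose and 8 fell, with the peptide trimmer ERAP1 from 81.4 and 81.6 to 47.4 and 50.8 CPM, and no member lay beyond every other group.

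Genes of glycolysis and respiration mostly fell. Of 37 tested genes of hypoxia and glycolysis 23 fell and 7 rose (median -0.27), where 34.8% of all genes fell and 33.1% rose. The list's median was -0.29 with knockout alone and 0.07 with LY500307 alone. SLC16A3, a lactate exporter, fell from 35.5 and 37.3 to 1.31 and 1.26 CPM, ALDOA, the main aldolase, from 1441 and 1477 to 627 and 629 CPM and LDHA, lactate dehydrogenase A, from 2295 and 2215 to 1474 and 1365 CPM. CA9, a hypoxia-induced carbonic anhydrase, rose from 8.82 and 9.85 to 22.4 and 25.03 CPM and lay above every other group. Glycolytic enzymes thus fell while this hypoxia target rose. ALDOA, LDHB, GPI, PFKP, PGAM1 and PKM2 lay below every other group, and that count of 6 became 1 without knockout vehicle replicate 2, 3 without knockout LY500307 replicate 1 and 2 with library totals. Of 42 nuclear genes of oxidative phosphorylation 23 fell and 6 rose (median -0.19; 3 rose with arm medians removed), with SDHA of complex II from 124 and 118 to 57.6 and 55.3 CPM. Of 39 tested autophagy and lysosome genes 24 rose and 6 fell (median 0.24), with the autophagy receptor OPTN from 25.95 and 26.4 to 96.3 and 97.1 CPM and the sialidase NEU1 from 46.7 and 53.01 to 103 and 114 CPM. The autophagy list had a median of 0.31 with knockout alone and 0.06 with LY500307 alone. Among 29 tested cholesterol genes 13 rose (44.8%) and 9 fell (31%), against 33.1% and 34.8% of all genes, and 5 fell with library totals. The exporter ABCA1 stood at 12.96 and 11.7 CPM in control, 37.9 and 37.9 with knockout and 25 and 24.9 CPM with both.

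Genes that oestrogen receptors are known to control were few and divided. Of 12 tested oestrogen-responsive genes, 7 rose and 5 fell (median 0.21; 3 fell without knockout LY500307 replicate 1), and GREB1, FOS and MYC lay above every other group, a count of 1 without knockout LY500307 replicate 2, 2 without either knockout vehicle library or under DESeq2, and 5 with library totals. GREB1, a chromatin cofactor of oestrogen receptor alpha, stood at 0.341 and 0.640 CPM in control, 3.04 and 3.81 with knockout, 0.839 and 0.999 with LY500307 and 5.29 and 6.28 CPM with both, a change of 3.55 (SE 0.28). Its distance above knockout alone was lost without knockout vehicle replicate 1, without knockout LY500307 replicate 2 and under DESeq2. IGFBP4 and CCND1 fell from 8.65 and 9.34 to 2.06 and 1.82 CPM and from 1088 and 1090.1 to 692 and 674 CPM. Of 17 tested nuclear receptors and coregulators 4 rose (23.5%) and 6 fell (35.3%), against 33.1% and 34.8% of all genes, and none lay beyond every other group. PELP1, a scaffold that joins KDM1A to oestrogen receptors, rose from 148 and 157 to 193 and 186 CPM, and NCOA2, a coactivator, fell from 40.1 and 38.2 to 25.4 and 26.3 CPM. Of 17 tested KDM1A-CoREST genes 7 rose and 8 fell (4 fell with library totals or without control vehicle replicate 1), with the scaffold RCOR3 from 31.1 and 29.9 to 45.7 and 46.4 CPM and the KDM1A-recruiting factor SNAI1 from 2.30 and 2.05 to 8.06 and 6.91 CPM. The medians of the nuclear receptor, CoREST and endoplasmic reticulum lists, -0.07, -0.04 and -0.06, turned positive with library totals, so no direction is given for them. Of 13 tested neuronal genes with REST sites, usual targets of CoREST repression, 4 rose and 6 fell, with GAD1 from 1.75 and 1.75 to 6.15 and 7.86 CPM and NEFL from 28.3 and 25.8 to 6.19 and 7.40 CPM. Of 15 tested ovarian cancer stem cell markers 12 fell and 2 rose. Their median was -1.60 with both factors, -1.39 with knockout alone and 0.11 with LY500307 alone. Only 1 rose under DESeq2, with arm medians removed or without control vehicle replicate 1, control vehicle replicate 2 or knockout LY500307 replicate 2. The receptor kinase KIT went from 6.39 and 5.37 to 0 and 0.140 CPM and the drug exporter ABCB1 upward from 4.94 and 4.09 to 10.3 and 10.7 CPM.

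**Figure D3:**
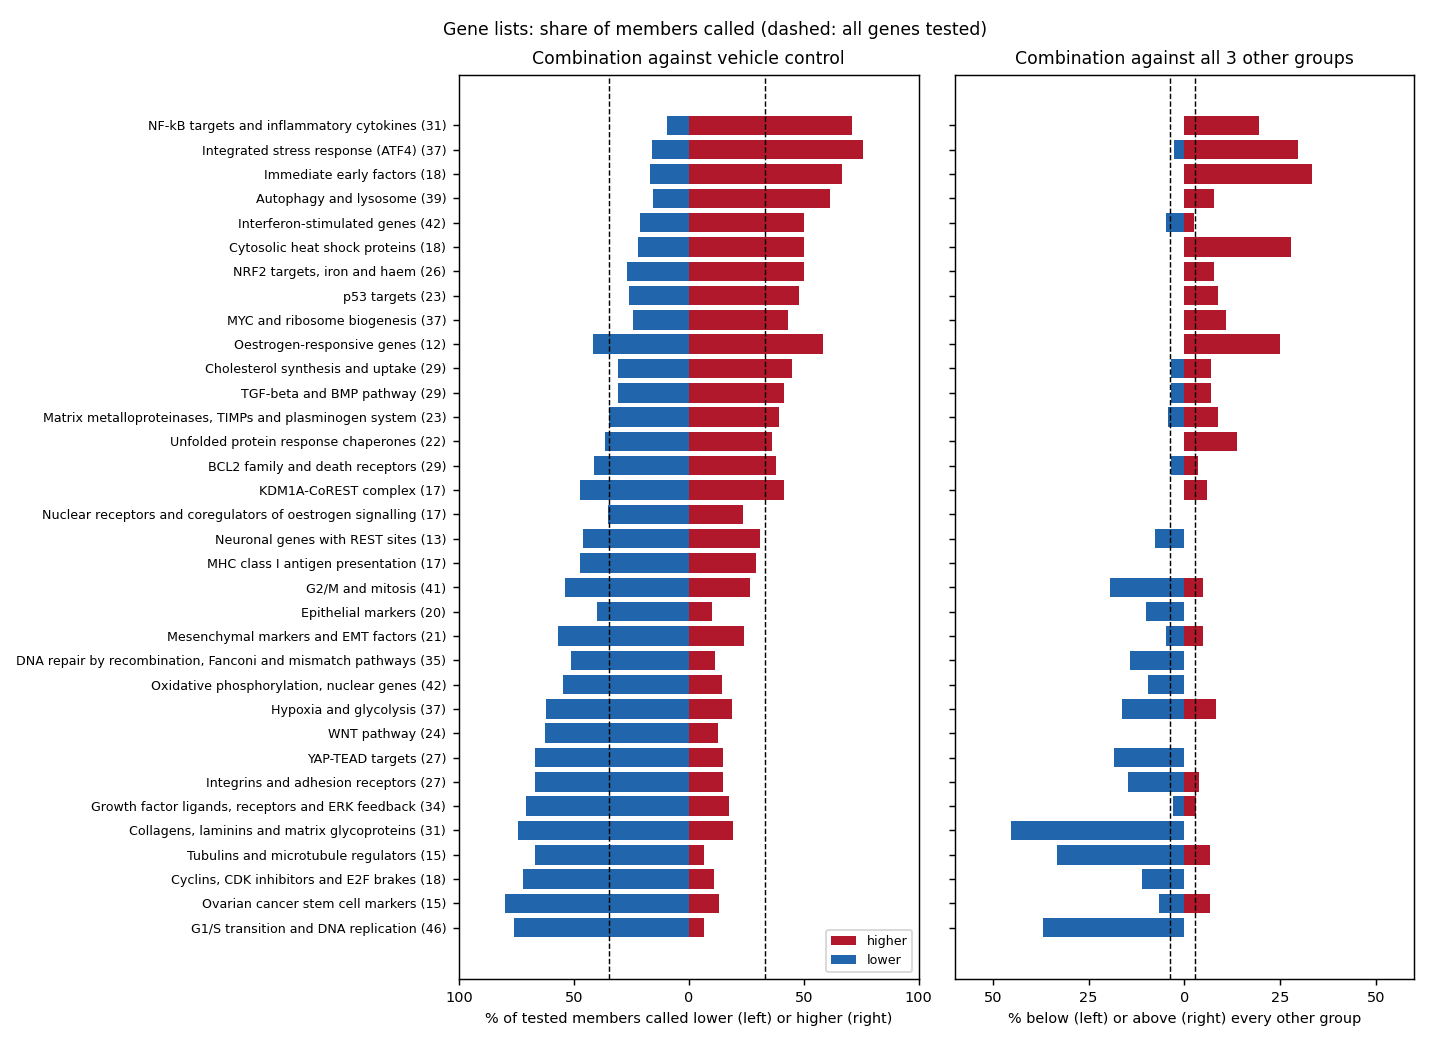
Share of tested members called in each list, ordered by the difference between higher and lower, with the number tested in brackets and the shares of all genes as dashed lines. The left panel shows the combination against vehicle control, with inflammatory, stress and immediate early genes at the top and replication genes at the bottom, and the right panel the share beyond every other group, in which, of the lists plotted, those of matrix and replication reach farthest below.

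Genes whose combined change departed from the sum of the single changes are those in which LY500307 acted differently in the 2 cell lines. TGFBI, a secreted adhesion protein induced by TGF-beta, stood at 85.9 and 81.7 CPM in control, 125 and 127 with knockout, 155 and 160.3 with LY500307 and 129 and 131 CPM with both, so that LY500307 changed it by 0.91 in control and 0.05 in knockout cells (departure -0.87, SE 0.07, adjusted p = 1.55e-09 by edgeR). KRT7 was raised by LY500307 in control cells, by 0.38, and not in knockout cells, where it changed by -0.04. FST, follistatin, an antagonist of activins, departed upward by 0.52, with 210.1 and 206 CPM in control, 44.6 and 37.2 with knockout, 189 and 191 with LY500307 and 53.8 and 52.97 CPM with both. LY500307 thus raised TGFBI and KRT7 in control cells, with no rise past the threshold in knockout cells, and raised FST in knockout cells (by 0.39). CLEC5A, MMP3 and IL24, which the knockout raised, also departed from the sum, and the control LY500307 libraries of CLEC5A and MMP3 differ as given above, while those of IL24 stood at 3.35 and 4.24 CPM.

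Chromosome position moved with the combined change. The median log2 change was -0.91 over 47 tested genes of arm 18p, -0.76 over 101 genes of 5p and -0.69 over 288 genes of 16p, where 83.3% fell and 1.74% rose. It reached 0.37 over 509 genes of 2q. With knockout alone the medians of these arms were -0.92, -0.78, -0.66 and 0.33, and with LY500307 alone they lay between -0.05 and 0.03. TYMS, TUBB6 and the complex I subunit NDUFV2 lie on 18p, ALDOA, ABCC1 and NDUFB10 on 16p and SDHA on 5p, so their falls share the shift of their arm. LAMA1 rose although it lies on 18p. With the arm medians removed, 37 of 46 replication genes fell and 20 lay below every other group, 23 of 31 matrix genes fell and 13 lay below every other group, and 27 of 37 integrated stress genes rose. The cause of the arm shifts was not tested.

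**Figure D4:**
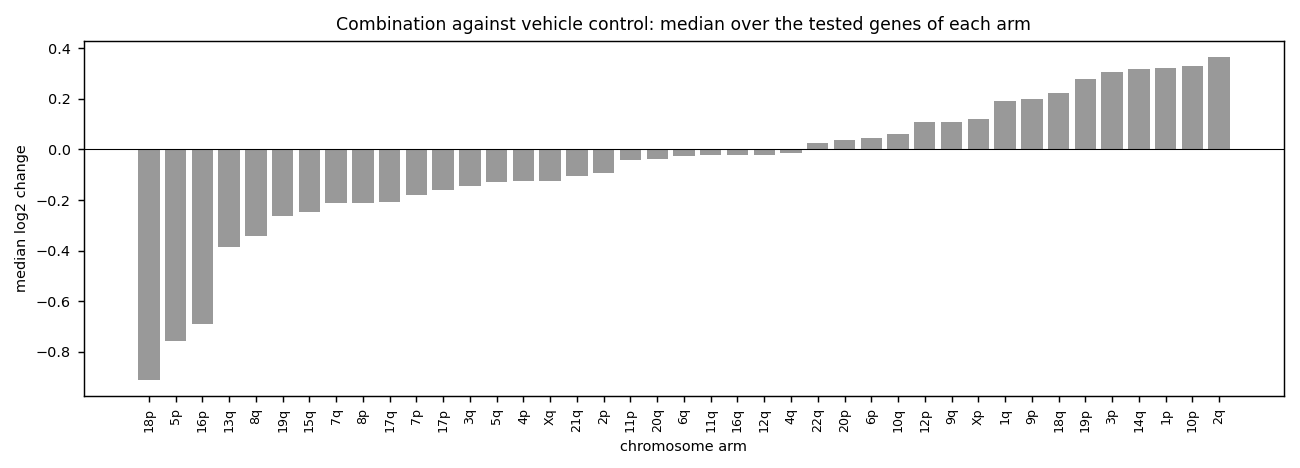
Median log2 change of the combination against vehicle control over the tested genes of each chromosome arm with at least 20 of them. Arms 18p, 5p and 16p stand lowest, between -0.91 and -0.69, and 2q highest at 0.37.

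The line was checked against marker lists. Of 13 markers of ovarian carcinoma and Mullerian epithelium, 5 were under 1 CPM in all 4 libraries, and in control libraries PAX8 stood at 1.66 and 2.30 CPM and WT1 at 1.92 and 1.58 CPM, so the usual ovarian lineage factors were low. KRT7 and KRT18 made up most of the list's summed level, which was 752 and 755 CPM in control and 621 and 618 CPM in combined libraries. For mesothelial and fibroblast markers, 8 of 13 were under 1 CPM and DCN had no count, and the summed level fell from 1301 and 1360 to 176 and 196 CPM, nearly all of it COL1A1. Of the 7 tested, 4 fell and 3 rose, FAP from 10.1 and 6.95 to 27.1 and 25.7 CPM, LUM from 0.0426 and 0.0427 to 2.36 and 1.85 CPM and CALB2 from 0.170 and 0.0427 to 0.375 and 0.454 CPM. Endothelial markers summed to 327 and 336 CPM against 305 and 325 CPM, mostly TIE1 and CDH5, with EMCN and CLDN5 without a count. Of the 5 endothelial markers tested, 3 rose and 2 fell. Haematopoietic markers summed to 100.4 and 103.8 CPM against 90.3 and 79.5 CPM, mostly CD68, with CD3E and TYROBP without a count and PTPRC under 0.1 CPM. Of the 4 haematopoietic markers tested, 2 rose, both by at least 2-fold, and 1 fell, so the lower sum does not describe most members. Fewer cells of a type and less RNA per cell cannot be told apart in these bulk libraries.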

How the data were processed

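RNA from 8 libraries of ES2 cells, 2 in each of 4 groups, was sequenced by the study, and groups were taken from the sample labels. The authors combined the reads of each sample, aligned them with TopHat2 (version 2.0.8b) to hg19 and deposited whole-number read counts per gene made with HTSeq, per the labels' protocols and the submitters' processing notes. Whether counting used strand is not stated in the labels, so overlapping and antisense genes may share reads. Rows that name no gene were left out of library sizes and tests. Reads in no feature were 10.7 to 12.8% of uniquely aligned reads per library, and ambiguous reads were left out too. Alignments that were not unique, also left out, came to 46.6 to 52.8% of the number of uniquely aligned reads. That share was lowest in control LY500307 replicate 1 and highest in knockout vehicle replicate 1.

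From these counts, genes passing edgeR's filter on low counts (13498 of 23228) were fitted in R 4.3.3 with edgeR 4.0.16 (TMM normalization, quasi-likelihood test) over all 8 libraries and 4 group means, with limma 3.58.1 and DESeq2 1.42.0 for alternatives. The biological coefficient of variation was 3.95%. The test that the combination lies beyond every other group takes the largest of its 3 p-values. The departure from the sum is the interaction term. With no count in a group, fold changes are bounds against 3 counts over that group, and counting intervals (95%) cover counting error only.

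Genes were named by rule: KDM1A and the oestrogen receptors, the 15 largest rises and 15 largest falls without overlap and with at least 5 CPM in a group, the 8 highest and 8 lowest in the combination, and up to 3 rises and 3 falls of each of 38 gene lists. Other genes named, including those listed as beyond every other group, were chosen after their values were seen, and a few genes picked by the rule are left unreported. The members and lists were chosen with earlier results of these data known. Gene positions are GENCODE v44 in hg19 coordinates, matched by symbol for 18908 genes and by an older symbol for 2134, and promoter sequences are RefSeq (GRCh38.p14), found for 174 of 221 named genes. Alternatives were other scalings, DESeq2, no filter, only the 4 libraries compared, a replicate block, removal of chromosome arm medians, a fold threshold of 1.5 and leaving out each library in turn.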

Additional observations from a re-analysis of the deposited data

Results flagged for a closer look

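The effect of LY500307 differed between knockout and control cells in 24 of the named genes, by the interaction test of edgeR with adjustment over all genes tested. The values are the log2 change with LY500307 in knockout cells minus that in control cells, and each rests on 2 libraries a group. The difference is negative except for NIP7, CHAC1 and FST.

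Among proteases and matrix genes the difference was -0.93 for MMP3, -0.77 for MMP2, -0.44 for TIMP3, -0.43 for PLAT, -0.87 for TGFBI, -0.53 for COL1A1 and -0.30 for TNC. Among keratins it was -0.42 for KRT7, -0.66 for KRT8 and -0.32 for KRT18. Among secreted signals it was -1.42 for DKK2, -0.75 for SEMA3A, -1.005 for IL24, -0.38 for EREG and 0.52 for FST. Among regulators of growth and transcription it was -0.41 for TOP2A, -0.61 for STMN3, -0.42 for KLF2 and 0.29 for NIP7. Among stress and metabolic genes it was 1.47 for CHAC1, -0.39 for NDRG1, -0.67 for ABCA1 and -0.34 for OPTN. CLEC5A gave -6.53, from levels without a count in control cells with vehicle and of 0.175 and 0.678 CPM with LY500307, and this fitted value is no bound. Without control LY500307 replicate 2 the CLEC5A difference did not pass (adjusted p = 0.146 by edgeR).

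The calls of IL24, TNC, KRT8, NDRG1, EREG, KLF2, NIP7 and CHAC1 were lost without at least 1 of the 8 libraries, and that of OPTN without any 1 of them. The cause of these differences was not tested.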

How the results depend on the processing

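The counts of genes called, higher and lower kept within 1.5 times under every alternative run, with 8291 to 9183 called, 3984 to 4463 higher and 4291 to 4729 lower when each library was left out in turn, 957 to 1024 at least 2-fold higher and 1058 to 1146 at least 2-fold lower. Genes above every other group numbered 757 with library totals and 198 with DESeq2, and 153 to 372 when single libraries were left out. Genes below every other group numbered 320 with library totals and 302 to 520 when single libraries were left out. Departures from the sum numbered 350 without the filter on low counts, 248 of them below, and 95 to 262 when single libraries were left out, 24 to 79 above and 71 to 183 below. With DESeq2, 47 departures lay above the sum. Without the filter more genes were tested. The cause of the other shifts was not tested.

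Deviations of same-numbered libraries correlated weakly over genes, by 0.000614 to 0.0700, all of them positive. Whether the replicate numbers pair the samples was not settled, and the main fit took the libraries as unpaired. With the replicate block 9503 genes were called, against 9169 without it. Departures numbered 643, against 218, with 297 above and 346 below. Genes above every other group numbered 561, against 382, and genes below 737, against 519.

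Removing chromosome arm medians turned 7 named changes, to 0.17 for ZMYM2, 0.22 for CREBBP, -0.062 for RPA2, -0.18 for ORC1, 0.26 for HSPH1, -0.19 for ITGAV and 0.47 for HMGCS1. Over all named genes and alternatives, 3242 combined changes kept direction and call, 51 kept direction and lost the call and 7 turned. For departures 298 kept the call and 38 lost it, and for distances from the nearest group 210 and 14. Depth limits genes with few counts, ESR1 and ESR2 among them, and 2 libraries a group limit all tests.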
